A study of Homo sapiens with 10 samples.

Results

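Regulators of G protein signalling (RGS proteins) were followed through the response of U937 cells, a human monocytic line, to cross-linking of an Fc gamma receptor. The 8 genes described here, RGS1, RGS2, RGS3, RGS10, RGS12, RGS14, RGS16 and RGS19, were taken by gene symbol, each has 1 probe set with that symbol alone, and together they are 8 of the 7714 genes so named on the array. The set was chosen by the RGS1 signal: RGS1 was picked because it differed between the receptors at 6 h, so its values in each comparison that uses the 6 h arrays are given as a description with no test. The other 7 genes are further members of the family, though not all of it, and were tested in 9 comparisons.

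All cells had been differentiated with interferon gamma, the controls included. There were 10 arrays in 5 groups of 2: cells cross-linked through CD64, the high-affinity IgG receptor, for 6 h or for 2 h, cells cross-linked through CD32, the low-affinity IgG receptor, for 6 h or for 2 h, and control cells with no cross-linking and no time listed. The labels do not say that duplicate arrays came from separate cultures. The p-values therefore describe only array-to-array spread, which may be technical. For 1 CD32 2 h array the source name gave another receptor number, and the title and description, which agreed on CD32, were followed.

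RGS proteins bind the alpha subunit of heterotrimeric G proteins in its GTP-bound form and speed the hydrolysis of GTP, which ends the signal that a G protein coupled receptor has started. In leukocytes they shorten and dampen responses to chemokines and other ligands of such receptors. Fc gamma receptors themselves signal through tyrosine kinases and not through G proteins. The members fall into the R4 subfamily, small proteins with little beyond the RGS domain (RGS1, RGS2 and RGS16, with the longer RGS3), the RZ subfamily (RGS19) and the R12 subfamily (RGS10, RGS12 and RGS14), of which RGS12 and RGS14 carry further domains that bind G proteins and Ras proteins.

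RGS1 and RGS2 lie close to each other in the genome, with RGS13 the only protein-coding gene between them. In GRCh38.p14 RGS1 occupies chr1:192575773-192580024 and RGS2 chr1:192809039-192812275, 229 kb apart, and RGS16 lies 9.97 Mb before RGS1 on the same chromosome. The other members are on chromosomes 9 (RGS3), 20 (RGS19), 10 (RGS10), 4 (RGS12) and 5 (RGS14). The 250 bases before the annotated start of RGS1 (chr1:192575523-192575772, plus strand) and of RGS2 (chr1:192808789-192809038, plus strand) are shown because the genes are neighbours and each read higher on both CD32 6 h arrays than on any other array. RGS16 also had its highest mean in that group, with arrays that overlapped the next group. They come from RefSeq on GRCh38.p14, read 5′ to 3′, and capitals mark a match to the cAMP response element half-site TGACGT on either strand.
RGS1: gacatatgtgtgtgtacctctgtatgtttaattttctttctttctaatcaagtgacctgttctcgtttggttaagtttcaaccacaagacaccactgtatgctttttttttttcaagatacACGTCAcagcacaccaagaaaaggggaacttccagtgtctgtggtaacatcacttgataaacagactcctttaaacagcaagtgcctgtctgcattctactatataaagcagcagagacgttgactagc
RGS2: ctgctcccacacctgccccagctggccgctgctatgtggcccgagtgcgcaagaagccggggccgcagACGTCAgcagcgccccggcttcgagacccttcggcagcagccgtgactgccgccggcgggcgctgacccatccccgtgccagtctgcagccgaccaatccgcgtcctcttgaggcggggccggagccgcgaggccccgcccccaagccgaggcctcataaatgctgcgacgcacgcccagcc
The windows differ in base composition, with 39.2% G and C and 3 CG dinucleotides before RGS1 against 72.8% and 28 before RGS2. The half-site begins 129 bases before the RGS1 start and 182 bases before the RGS2 start. Of 18 such windows listed for the 8 members, 2 hold it, these 2 and not that of RGS16, while 7.1% of 35116 windows of all genes do. The half-site was chosen after the windows had been read. The full element TGACGTCA, the AP-1 motif TGANTCA and the STAT motif TTCNNNGAA, searched on both strands, have no match in any of the 18 windows and are held by 1.65%, 6.57% and 6.57% of all windows. An NF-kappaB motif, GGGRNWYYCC (R is A or G, W is A or T, Y is C or T), was searched likewise. It has no match in the 18 windows either and is held by 5.21% of all windows. The RGS1 window holds gggaacttcc, which departs from those letters only at the W, so the lack of a match depends on the motif chosen. TATAAA was found before RGS1, starting 27 bases before the start, and in 1 window of RGS3, against 10.7% of all windows. A match is a description of the letters and not of a bound site.

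Values are linear signal as deposited, scaled by the submitters to a like mean on every array. The median signal per array was 101 to 153. Before log2 was taken, lower values were raised to 37.5 (percentile 25 of the table), called the floor here, and 7708 probe sets above it on at least 2 arrays were tested. All 8 members passed that filter. RGS16 was above the floor on 7 arrays and the others on 10. Levels are compared between groups for 1 probe set at a time and not between genes, and the number of arrays limits the precision. Of 12 monocytic marker genes 8 had a probe set with that symbol alone, and 6 of these were above the floor on 10 of 10 arrays. CD14, the lipopolysaccharide co-receptor, was above it on 3 arrays, and the granule enzyme MPO on 2.

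In the plot of signal by array, RGS1 stood out in 1 group. Its probe set read 138.0 and 94.0 in CD64 6 h, 47.0 and 103.5 in CD64 2 h, 496.0 and 974.8 in CD32 6 h, 62.8 and 72.1 in CD32 2 h, and 115.9 and 67.4 in control. The lower of the CD32 6 h arrays was 3.59 times the highest of the other 8 arrays, and those 2 arrays themselves differed 1.97-fold. In order of the group mean, CD32 6 h (735 ± 339, SD, n = 2) was followed by CD64 6 h (116 ± 31.1), control (91.7 ± 34.3), CD64 2 h (75.3 ± 40.0) and CD32 2 h (67.5 ± 6.58), and from CD64 6 h downward each group overlapped with the next. RGS1 restrains chemokine-driven migration of lymphocytes, as known from mice.

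The fitted log2 difference of RGS1 was -2.61 ± 0.50 (SE) for CD64 6 h against CD32 6 h, 2.98 ± 0.50 for CD32 6 h against control, and 0.37 ± 0.50 for CD64 6 h against control, all without a test. Between times it was 3.37 ± 0.50 for CD32 6 h against CD32 2 h and 0.71 ± 0.50 for CD64 6 h against CD64 2 h, also as descriptions. The 2 h arrays were not used to pick the gene. There limma called RGS1 in neither receptor's comparison with control (log2 -0.34 ± 0.50, adjusted p = 0.734, for CD64 and -0.39 ± 0.50, adjusted p = 0.693, for CD32), nor between the receptors (adjusted p = 0.99). The 95% half-width of each of these differences was 1.11 on the log2 scale. Leaving out 1 array at a time moved the CD32 6 h difference from control between 2.49 and 3.46, and that of CD64 6 h from CD32 6 h between -3.10 and -2.12. The smaller differences moved more for their size, that of CD64 6 h from control between -0.03 (without control replicate 2) and 0.76 (without control replicate 1), and that of CD64 6 h from CD64 2 h between 0.14 and 1.28 (without CD64 2 h replicate 1 and 2).

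**Figure D1:**
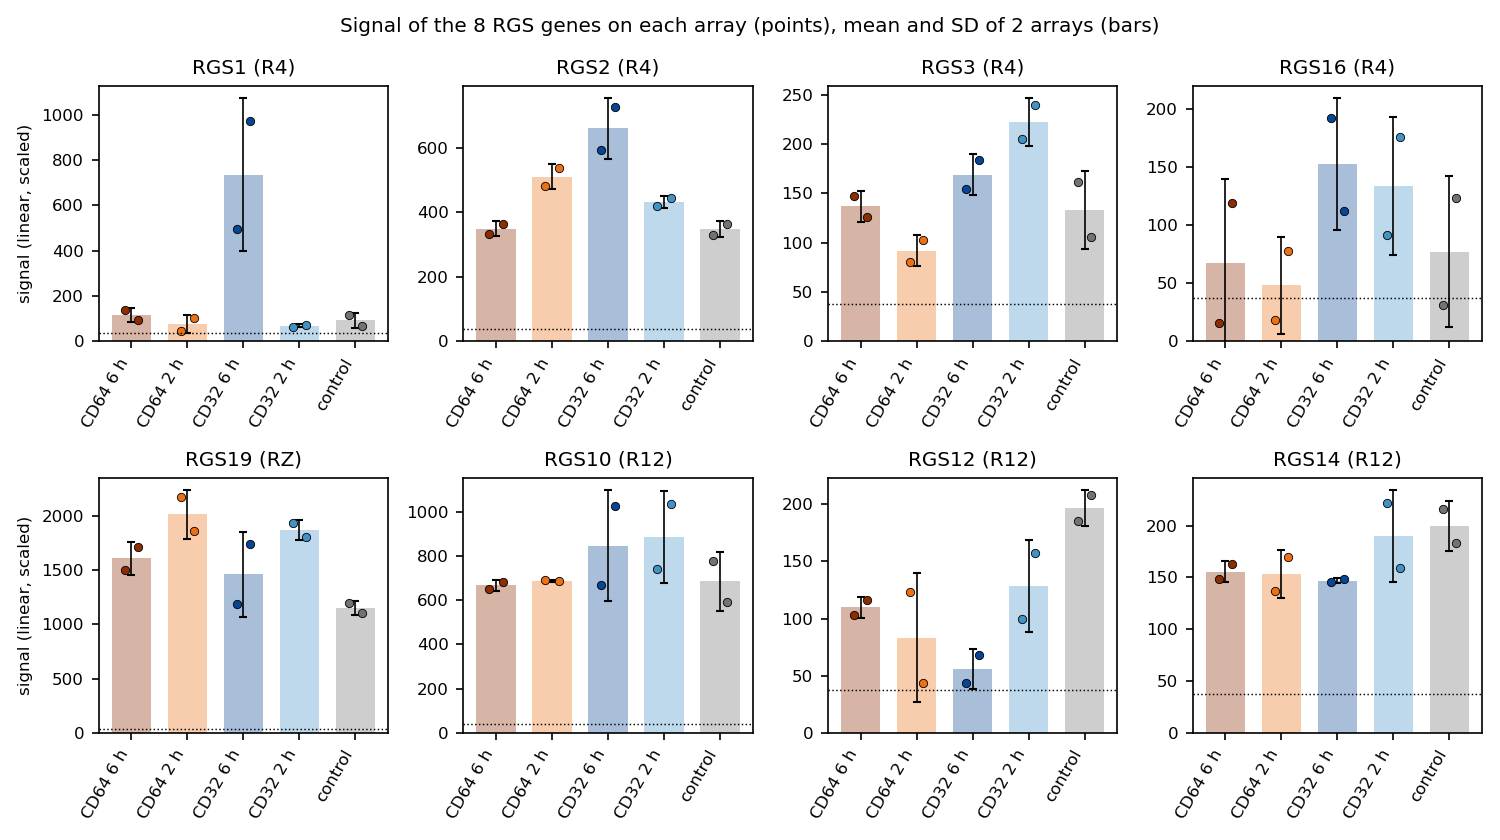
Signal of the 8 RGS genes on each array (points, linear scaled signal), with the mean (bars) and SD of 2 arrays (error bars, cut at 0) for CD64 6 h, CD64 2 h, CD32 6 h, CD32 2 h and control. The dotted line is the floor of 37.5. By group mean RGS1, RGS2 and RGS16 were highest in CD32 6 h, RGS19 in CD64 2 h and RGS12 in control.

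RGS2, which acts most strongly on the Gq class of alpha subunits and is induced by many stimuli, rose after 6 h of CD32 and after 2 h of CD64 and was near control after 6 h of CD64. Its signal was 333.1 and 364.8 in CD64 6 h, 482.2 and 537.3 in CD64 2 h, 594.1 and 726.6 in CD32 6 h, 419.9 and 445.4 in CD32 2 h, and 330.6 and 364.7 in control. The groups followed each other without overlap from CD32 6 h through CD64 2 h and CD32 2 h, and only CD64 6 h and control, the lowest pair, overlapped.

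Against control, RGS2 rose 1.89-fold in CD32 6 h (log2 0.92 ± 0.16 SE, adjusted p = 0.00214, limma) and 1.47-fold in CD64 2 h (0.55 ± 0.16, adjusted p = 0.0398). The difference was 0.32 ± 0.16 in CD32 2 h, where both arrays lay above both controls but limma did not call it (adjusted p = 0.245). In CD64 6 h it was 0.01 ± 0.16 with a 95% half-width of 0.35 (adjusted p = 1), an interval that holds changes of that size in either direction. The CD64 2 h call was lost in 10 of 19 alternative settings, 8 of which leave out 1 array each (any array outside CD32 6 h), with adjusted p reaching 0.203. The CD32 6 h call held in 19 of 19, with log2 differences of 0.77 to 1.07.

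The receptors parted with time in RGS2. At 6 h it was 1.88-fold lower in CD64 than in CD32 cells (log2 -0.91 ± 0.16, adjusted p = 0.00285), whereas at 2 h the difference was 0.24 ± 0.16 (adjusted p = 0.407). Within CD64 it was lower at 6 h than at 2 h by a log2 difference of -0.55 ± 0.16 (adjusted p = 0.0456, lost in 8 of 19 alternatives, among them without any 1 array of CD64 or of CD32 2 h, with adjusted p reaching 0.235), and within CD32 the later arrays were 0.60 ± 0.16 higher (adjusted p = 0.0615, not called). The test of the difference between these time courses, the interaction of receptor and time, gave -1.15 ± 0.23 (adjusted p = 0.00859, limma) and held in 19 of 19 alternatives. Among all probe sets 11.5% were called for that interaction, and among the 7 members tested RGS2 was the 1 called.

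RGS3, an R4 member with long isoforms, was the 1 member of 8 called between the receptors at 2 h, against 16.3% of all probe sets. It read 80.5 and 102.9 in CD64 2 h and 205.0 and 239.5 in CD32 2 h, with 161.5 and 105.5 in control between them. The CD64 2 h arrays thus lay below both controls and the CD32 2 h arrays above both. CD64 was 2.43-fold lower than CD32 (log2 -1.28 ± 0.35, adjusted p = 0.0294, limma), while neither receptor was called against control (-0.52 ± 0.35, adjusted p = 0.389, for CD64 and 0.76 ± 0.35, adjusted p = 0.192, for CD32). The CD64 2 h difference from control shrank to -0.24 under quantile and -0.18 under cyclic loess normalization, and to -0.21 without control replicate 1. The call was lost under quantile (adjusted p = 0.0568) and cyclic loess normalization (adjusted p = 0.0558) and without any 1 of the 4 arrays compared (0.0661 to 0.164). At 6 h RGS3 read 147.8 and 125.8 in CD64 and 154.3 and 183.8 in CD32, and limma did not call that difference (adjusted p = 0.645).

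RGS16, an R4 member that acts on Gi and Gq alpha subunits, was measured with too much spread to separate any groups by the test. Its arrays read 15.3 and 118.7 in CD64 6 h, 18.4 and 77.6 in CD64 2 h, 192.4 and 112.1 in CD32 6 h, 91.7 and 175.5 in CD32 2 h, and 31.1 and 122.9 in control. In 3 groups 1 array lay under the floor. Its largest fitted differences were -1.23 ± 0.71 for CD64 against CD32 at 2 h (adjusted p = 0.309) and -1.14 ± 0.71 for CD64 against CD32 at 6 h (adjusted p = 0.345), followed by 1.11 ± 0.71 for CD32 6 h against control (adjusted p = 0.329).

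RGS19, also named GAIP for its binding to a Gi alpha subunit, rose with both receptors at 2 h. Its signal was 1502.2 and 1716.4 in CD64 6 h, 2176.8 and 1856.9 in CD64 2 h, 1186.6 and 1741.6 in CD32 6 h, 1933.4 and 1805.5 in CD32 2 h, and 1199.5 and 1103.0 in control. The 2 h arrays of both receptors and both CD64 6 h arrays lay above the controls, and 1 CD32 6 h array lay among them. Against control the rise was 1.75-fold in CD64 2 h (log2 0.81 ± 0.16, adjusted p = 0.00685, limma) and 1.62-fold in CD32 2 h (0.70 ± 0.16, adjusted p = 0.0139).

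At 6 h limma did not call RGS19 against control, at 0.48 ± 0.16 in CD64 (adjusted p = 0.0596) and 0.32 ± 0.16 in CD32 (adjusted p = 0.208). The CD64 6 h difference was called in 5 of 19 alternatives (0.0152 to 0.0367), among them without either CD32 6 h array, and the CD32 6 h difference without CD32 6 h replicate 1 (0.60, adjusted p = 0.0207). Leaving out control replicate 2 ended the CD64 2 h call (adjusted p = 0.053), as did leaving out CD64 2 h replicate 1 (0.0644), no filter (0.0503) and no variance trend (0.0551). The CD32 2 h call was lost without control replicate 2 (0.0917) or either CD32 2 h array (0.105 and 0.0604), with no filter (0.0772) and with no variance trend (0.0796). Both receptors have the same 2 control arrays in these comparisons.

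RGS12, the largest of the R12 proteins, was the member that fell. It read 103.1 and 116.5 in CD64 6 h, 123.3 and 43.1 in CD64 2 h, 43.7 and 68.1 in CD32 6 h, 100 and 157.1 in CD32 2 h, and 185.9 and 208.3 in control. All 8 cross-linked arrays lay below both controls. In CD32 6 h it fell 3.61-fold (log2 -1.85 ± 0.51, adjusted p = 0.0269, limma). The differences from control that were not called were -0.84 ± 0.51 in CD64 6 h (adjusted p = 0.321), -1.43 ± 0.51 in CD64 2 h (adjusted p = 0.089) and -0.65 ± 0.51 in CD32 2 h (adjusted p = 0.488). The CD32 6 h call was lost with no filter (adjusted p = 0.0826) and without control replicate 1 (0.0815), control replicate 2 (0.0972), CD32 6 h replicate 1 (0.164) or CD32 6 h replicate 2 (0.0529). Without CD64 2 h replicate 1 the CD64 2 h difference became -2.19 (adjusted p = 0.0276), and without CD64 2 h replicate 2 it became -0.67 (adjusted p = 0.515).

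The other R12 members, RGS10, which acts on the Gi class and restrains inflammatory activation of macrophages in mice, and RGS14, a Gi regulator with a Ras-binding region, were called in none of their comparisons by limma, nor in any of 19 alternatives. RGS10 read 649.8 and 684.8 in CD64 6 h, 689.7 and 685.3 in CD64 2 h, 669.0 and 1026.8 in CD32 6 h, 741.0 and 1034.2 in CD32 2 h, and 779.7 and 592.1 in control, and each of the 4 cross-linked groups had an array inside the control range. RGS14 was at 148.3 and 162.5 in CD64 6 h, 137.0 and 169.7 in CD64 2 h, 145.1 and 148.6 in CD32 6 h, 221.6 and 158.6 in CD32 2 h, and 216.3 and 182.8 in control, so that the CD64 6 h, CD64 2 h and CD32 6 h arrays lay below both controls and the CD32 2 h arrays on either side of them. Its differences from control were -0.36 ± 0.31 in CD64 6 h, -0.38 ± 0.31 in CD64 2 h and -0.44 ± 0.31 in CD32 6 h. None reached an unadjusted p under 0.05.

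**Figure D2:**
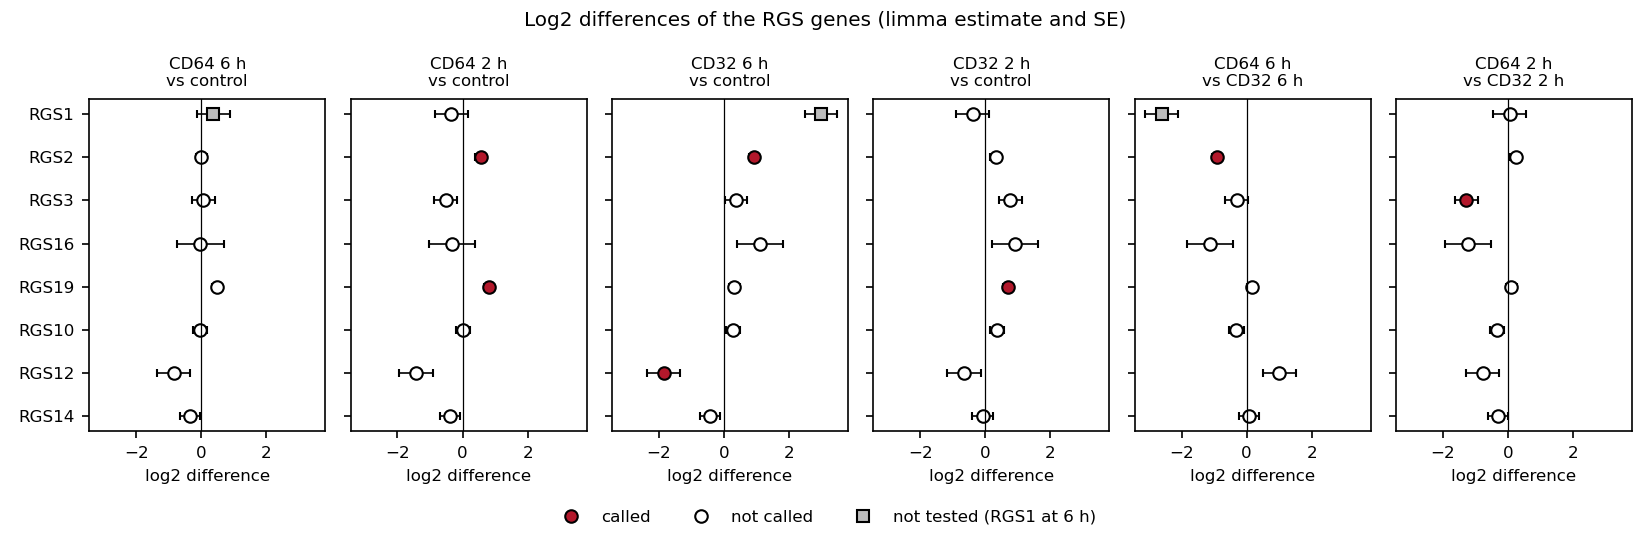
Fitted log2 differences of the 8 RGS genes (limma estimate, bars are SE) for 4 comparisons with control and for CD64 against CD32 at 6 h and 2 h. Red points passed an adjusted p of 0.05, white points did not, and grey squares are RGS1 values at 6 h that were not tested. RGS2 was called in 3 of the 6 comparisons shown, RGS19 in 2, and RGS3 and RGS12 in 1 each.

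For these 8 genes, the members called are given beside the share of all probe sets called. After 6 h of CD64 limma called 0 of 7 members, where 20.6% of all probe sets were called, 10.7% upward and 9.94% downward. After 2 h of CD64 it called 2 of 8, RGS2 and RGS19, both upward, against 15.9% (7.64% upward, 8.24% downward). After 6 h of CD32 it called 2 of 7, RGS2 upward and RGS12 downward, against 20.0% (9.63% upward, 10.3% downward). After 2 h of CD32 it called 1 of 8, RGS19, upward, against 15.5% (8.86% upward, 6.60% downward).

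Between the receptors at 6 h 1 of 7 members was called, RGS2, lower in CD64, against 17.6% of all probe sets (9.81% higher, 7.80% lower). At 2 h the 1 of 8 was RGS3, lower in CD64, against 6.86% higher and 9.43% lower. Between 6 h and 2 h 1 of 7 was called within CD64, RGS2, lower at 6 h, against 13.8% (7.56% higher, 6.25% lower). Within CD32 0 of 7 were called by limma, against 4.46% (2.04% higher, 2.43% lower). For the interaction 6.72% of all probe sets were called with a positive and 4.75% with a negative difference, the sign of RGS2.

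Arrays of 2 groups often do not overlap with 2 arrays each. Against control this held for 3 of 7 members in CD64 6 h (53.1% of all probe sets), 5 of 8 in CD64 2 h (51.7%), 3 of 7 in CD32 6 h (54.0%) and 4 of 8 in CD32 2 h (50.2%). Between receptors it held for 3 of 7 at 6 h (56.7%) and 4 of 8 at 2 h (55.8%). Between times it held for 4 of 7 within CD64 (52.8%) and 5 of 7 within CD32 (48.4%). The comparisons with control share their control arrays. In bulk RNA, fewer cells with a transcript and less of it per cell cannot be told apart.

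Other properties of the arrays also differed between groups. The mean log2 signal of 18 probe sets for added bacterial and bacteriophage transcripts was 9.32 in CD64 6 h, 10.87 in CD64 2 h, 12.36 in CD32 6 h, 11.25 in CD32 2 h and 10.63 in control. Actin probe sets at the 3′ end read 1.12 times those at the 5′ end in CD64 6 h, 1.81 in CD64 2 h, 1.99 in CD32 6 h, 1.56 in CD32 2 h and 1.30 in control. Both measures were highest in CD32 6 h, the group in which RGS1 and RGS2 were highest. The summed signal of the 8 monocytic markers was 3373 to 3670 in CD64 6 h, 2089 to 2132 in CD64 2 h, 5769 to 6326 in CD32 6 h, 3999 to 4160 in CD32 2 h and 3029 to 3305 in control. The markers entered this sum unevenly. Over the 10 arrays CD4 read 518 to 2474, CYBB 333 to 1539, ITGAM 368 to 784 and FCGR2A 596 to 737. SPI1 read 98.2 to 589, CSF1R 78.7 to 204, CD14 3.6 to 129 and MPO 1.9 to 61.0. The sum over 5 of 7 B cell markers on the array, the other leukocytes known for high RGS1, was 381 to 496 in CD32 6 h and 277 to 559 in control. The sum over 6 of 7 T cell markers was 207 to 340 and 296 to 351.4 in those groups. Over 5 of 6 natural killer cell markers it was 2063 to 2211 and 2276 to 2311, where NKG7 alone read 1409 to 2300 over the 10 arrays. Over 4 of 7 erythroid and platelet markers it was 398 to 459 and 328 to 358, with HBB at 170 to 464 over the 10 arrays. Of the B cell markers CD79A was above the floor on 10 arrays, MS4A1 on 9, CD22 on 7, CD79B on 3 and BLK on 0. The part of these measures in the RGS values was not tested.

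Genes were ranked by how like their profile was to that of RGS1, RGS2 or RGS16, and any gene has some that rank highest. Among 2105 probe sets with 1 symbol and a range of at least 1 log2 unit between group means, the Pearson correlation with RGS1 over the 10 arrays was highest for the guidance factor SEMA5A (0.91), the urokinase receptor PLAUR (0.88), DDAH2 (0.88), which breaks down methylarginines, and the small GTPase RRAS2 (0.88). PLAUR averaged 1693 ± 100 in CD64 6 h, 1128 ± 13.1 in CD64 2 h, 2914 ± 63.7 in CD32 6 h, 1417 ± 28.4 in CD32 2 h and 1146 ± 19.7 in control (SD, n = 2). For RGS2 they were the vesicle traffic GTPase RAB1A (0.92), the insulin receptor substrate IRS2 (0.89) and the AP-1 transcription factors FOSB (0.89) and FOS (0.89). FOS averaged 160 ± 13.9 in CD64 6 h, 272 ± 29.9 in CD64 2 h, 435 ± 56.4 in CD32 6 h, 228 ± 26.3 in CD32 2 h and 160 ± 45.1 in control, which is the order of groups seen for RGS2. For RGS16 they were PLEK2 (0.92), PC (0.87), ITPKB (0.86) and GRN (0.82). PLEK2 varied widely within some groups, as RGS16 did, with 67.45 ± 67.0 in CD64 6 h and 140.55 ± 146 in control (SD, n = 2). The RGS1 correlations include the 6 h arrays by which RGS1 was picked. All these correlations are descriptions over arrays that fall into 5 groups. Part of them rests on values set to the floor: SEMA5A averaged 35.7 in CD64 6 h, 18.7 in CD64 2 h, 106 in CD32 6 h, 37.9 in CD32 2 h and 21.9 in control, where the floor was 37.5. RRAS2 averaged 5.35 in control, and FOSB averaged 16.4 in CD64 6 h and 10.2 in control.

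**Figure D3:**
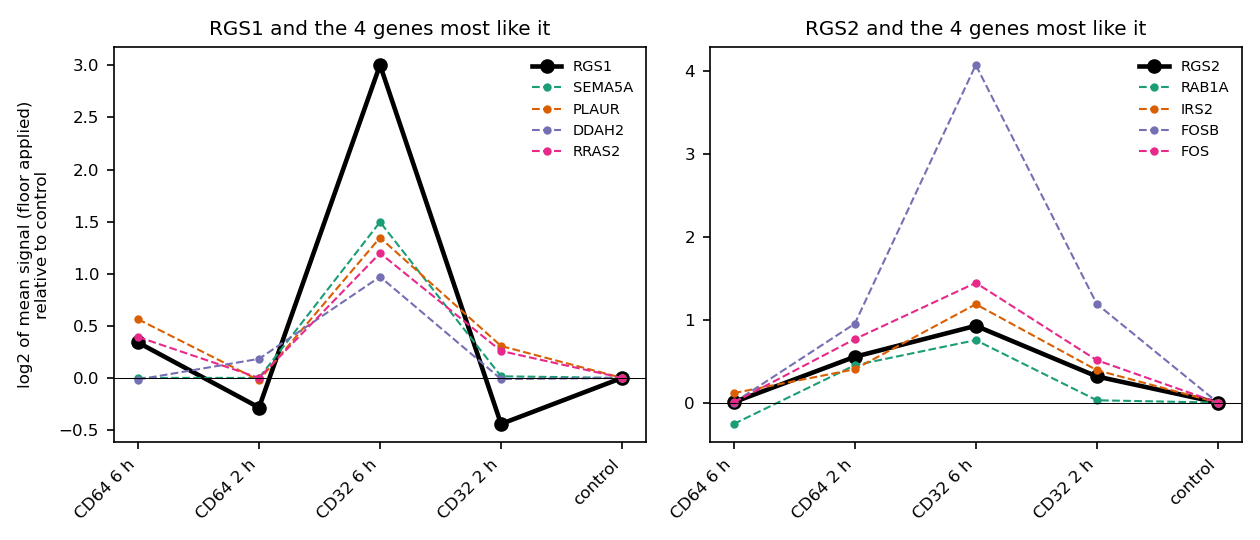
Log2 of the group mean signal relative to control (values under the floor set to it) for RGS1 and RGS2 (black) and for the 4 genes whose signal correlated most with each over 10 arrays (dashed). Both genes and both sets are highest in CD32 6 h.

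Further RGS genes on the array gave low signal. RGS4, RGS5, RGS6, RGS7, RGS9, RGS11, RGS17 and RGS20 had 9 probe sets, on which the highest value was 109 and the medians over arrays were 6.6 to 45.2. For 5 of them at least 2 arrays were above the floor, and limma called none of these in any of the 9 comparisons. The list of other proteins with an RGS domain also holds G protein coupled receptor kinases and axins. Of its 31 gene symbols 16 had a probe set with that symbol alone, and 13 were tested. Against control 0 of 13 were called in each of the 4 comparisons by limma, while 35.4% of all probe sets were called in at least 1 of the 4. The count became 1 with log2(value + 16), with the floor at percentile 10 and with the filter at 5 arrays. It also moved without control replicate 2 or either CD64 2 h array. The tethering protein AKAP10 was lower in CD64 6 h than in CD32 6 h and was the 1 gene of that list called in any comparison.

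The G proteins on which these regulators act come next. Of 14 alpha subunits tested 5 were called in at least 1 comparison with control (3 without control replicate 2), against the same 35.4% of all probe sets, and 9 were not. GNAS, the stimulatory alpha subunit that raises cAMP, rose 2.85-fold in CD64 6 h (415.8 and 435.7, against 146.7 and 152.1 in control, log2 1.51 ± 0.24, adjusted p = 0.00114) and 2.19-fold in CD32 6 h (388.9 and 276.0, log2 1.13 ± 0.24, adjusted p = 0.00693), and it was also called upward in CD32 2 h. Of the inhibitory subunits, GNAI3 was called upward in both CD64 comparisons, and GNAI2 was called downward in both CD64 comparisons and upward in CD32 6 h. Of 9 beta and gamma subunits tested 5 were called in at least 1 comparison with control, against 35.4%. That count was 3 when the fit held only the groups compared. GNG10 rose 2.03-fold in CD64 6 h (2099.3 and 1693.2, against 887.0 and 970.2, adjusted p = 0.000379) and was called upward in CD64 2 h and CD32 6 h too, and GNG7 fell 2.28-fold in CD32 6 h (135.1 and 111.4, against 371.4 and 211.0, adjusted p = 0.0236).

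Among 22 effectors and second messenger genes 7 were called in at least 1 comparison with control, against 35.4% of all probe sets. That count was 4 without control replicate 2 and 3 with no filter. ITPR1, a calcium release channel opened by the product of phospholipase C, rose 4.28-fold in CD32 6 h (1276.0 and 1090.3, against 232.2 and 327.5 in control, log2 2.10 ± 0.18, adjusted p = 2.45e-05) and 2.26-fold in CD32 2 h (adjusted p = 0.00164), and it was called upward in both CD64 comparisons too. PLCB2, a phospholipase C activated by G proteins, fell 4.31-fold in CD64 6 h (62.4 and 43.5, against 213.6 and 235.7, adjusted p = 0.0138), and PRKACB, a catalytic subunit of protein kinase A, rose 2.64-fold there (adjusted p = 0.0195). In CD64 2 h PDE4B, which degrades cAMP, fell 2.85-fold (adjusted p = 0.0137), and ITPR3 fell 2.24-fold (adjusted p = 0.0425), a call lost in 14 of 19 alternatives. Of 3 other modulators tested GPSM3, which binds Gi alpha subunits, was called downward in both CD64 comparisons.

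Of 43 G protein coupled receptors of monocytes 16 were called in at least 1 comparison with control, against 35.4% of all probe sets, 9 upward and 2 downward in CD64 6 h, 3 and 3 in CD64 2 h, 9 and 3 in CD32 6 h, and 7 and 4 in CD32 2 h. The shares of all probe sets called per comparison are those given for the members above. C5AR1, the receptor for the complement fragment C5a, rose 4.8-fold in CD32 6 h (275.0 and 374.7, against 63.7 and 70.3 in control, adjusted p = 0.000319) and 4.75-fold in CD32 2 h (adjusted p = 0.000507), and it was called upward in CD64 6 h too. The histamine receptor HRH1 rose 5.0-fold in CD64 6 h (257.8 and 325.4, against 89.6 and 36.6, adjusted p = 0.00272), a fold that depends on the floor through 1 control array, and it was called upward in the other 3 comparisons with control too. The fractalkine receptor CX3CR1 rose 6.24-fold in CD64 6 h (adjusted p = 3.52e-05) and 5.97-fold in CD32 2 h (adjusted p = 5.53e-05) and was called upward in CD32 6 h too. The adenosine receptor ADORA2B fell at least 3.82-fold in CD64 2 h (38.2 and 33.1, against 196.0 and 106.9 in control, adjusted p = 0.0205) and was called downward in CD32 2 h too. Its CD64 2 h call depended on the floor. It was lost with log2(value + 16) in place of the floor (adjusted p = 0.122, limma) and with the floor at percentile 10 (0.246). With no filter (0.0777) and with no variance trend (0.0539) it was lost too.

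**Figure D4:**
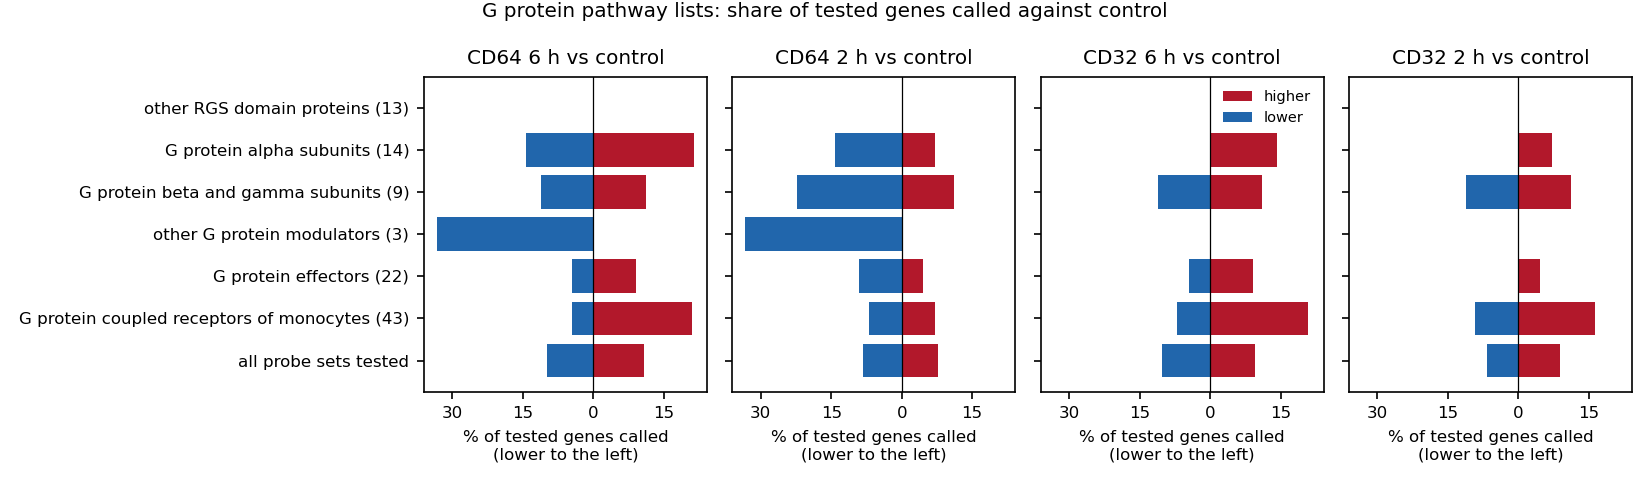
Share of tested genes called at an adjusted p of 0.05 against control, upward to the right (red) and downward to the left (blue), for 6 lists of the G protein pathway (number of genes tested in brackets) and for all probe sets tested. No other RGS domain protein was called by limma, and the receptor list had 9 of 43 genes called upward in CD64 6 h and in CD32 6 h.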

How the data were processed

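RNA of 10 samples was measured on 1-colour oligonucleotide arrays. The deposited values are linear signal intensity per probe set, which the submitters had scaled: the mean without the lowest and highest 2% was 499.9 to 500.5 on each array. The software is not given in the sources used here. Symbols came from the platform annotation. Of 8793 probe sets 47 were controls, and of the others 7840 had 1 symbol, 388 several and 518 none. Group means of log2 signal were estimated for 7708 probe sets in limma 3.58.1 under R 4.3.3, with lmFit and with eBayes (trend = TRUE), leaving 5 residual degrees of freedom. Tests were two-sided, adjusted over all 7708 probe sets by Benjamini and Hochberg, and called at an adjusted p under 0.05. A gene of a list entered through its brightest probe set. List and marker genes were counted as on the array only where a probe set carried the listed symbol alone. The named list genes were called against control with a log2 difference of at least 1 and no overlap of arrays, at most 2 per list and comparison, and AKAP10, GNAI2, GNAI3 and GPSM3 were named after their values were seen. The members and lists were chosen with earlier results of these data known. The fit was tested on simulated data.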

Additional observations from a re-analysis of the deposited data

Results flagged for a closer look

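RGS2 differed between the receptors in how it changed with time: the interaction of receptor and time was -1.15 on the log2 scale (adjusted p = 0.00859, limma). At 6 h RGS2 was lower in CD64 than in CD32 cells by a log2 difference of -0.91 (adjusted p = 0.00285). RGS3 differed between the receptors at 2 h by -1.28 (adjusted p = 0.0294), with both CD64 arrays below and both CD32 arrays above the control arrays. Whether RGS3 lay on opposite sides of control was not tested as such. Against control limma called neither receptor (adjusted p = 0.389 for CD64 and 0.192 for CD32). The higher CD64 array read 102.9 and the lower control array 105.5. The call between receptors was lost under quantile (adjusted p = 0.0568) and cyclic loess normalization (adjusted p = 0.0558). Leaving out 1 array at a time moved that difference between -1.46 and -1.11. The CD64 2 h difference from control was -0.52 as deposited, -0.24 under quantile and -0.18 under cyclic loess normalization.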

How the results depend on the processing

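Each member difference larger than its SE was recomputed under 19 alternatives. So were every RGS1 difference at 6 h and the RGS2 difference of CD64 6 h from control. Of the alternatives 10 leave out 1 array and 9 change another setting. A group left with 1 array is then assumed to vary like the others. All 9 called member differences kept their sign in 19 of 19. The RGS2 calls for CD32 6 h against control, CD64 against CD32 at 6 h and the interaction held in all 19. Leaving out 1 array gave these counts of members called against control: 0 to 1 for CD64 6 h, 0 to 2 for CD64 2 h, 1 to 2 for CD32 6 h and 0 to 1 for CD32 2 h. Between receptors it gave 0 to 1 at 2 h and 1 at 6 h, 0 to 1 within CD64 over time, 0 within CD32, and 1 to 2 for the interaction. With no filter 0 members were called in CD32 2 h and 1 each in CD32 6 h and CD64 2 h. With no variance trend 0 were called in CD32 2 h, CD64 2 h and CD64 6 h against 2 h. When the fit held only the groups compared, 1 member each was called for CD64 2 h and CD64 6 h and 0 in CD64 6 h against 2 h. With log2(value + 16) and with the filter at 5 arrays 1 was called in CD64 6 h (RGS19). Between receptors at 2 h quantile and cyclic loess normalization left 0. In CD32 6 h against 2 h RGS2 became the 1 called member under cyclic loess (0.73) and with a replicate block (0.60, adjusted p = 0.0472). The replicate numbers share no stated origin, and deviations of like-numbered arrays correlated at -0.14 to 0.28 over 10 pairs of groups, so the block is no pairing.

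Signs turned for differences that were not called: RGS1 in CD64 6 h (-0.03 without control replicate 2, not tested), RGS2 in CD64 6 h (-0.053 under quantile and -0.059 under cyclic loess normalization, and -0.065 to 0.076 with 1 array left out, negative without control replicate 1 or CD64 6 h replicate 2), RGS10 in CD32 6 h (-0.022 without CD32 6 h replicate 2) and RGS12 between times in CD64 (-0.17 to 1.35 with 1 array left out, negative without CD64 2 h replicate 2). The RGS1 interaction of -2.66 became -3.23 or -2.09 without either CD64 2 h array. The median of all log2 differences in CD64 2 h against control was -0.13 as deposited and 0 under quantile normalization. The upward share of calls in CD32 6 h against 2 h was 45.6% as deposited and 56.1% under cyclic loess. Over all probe sets the counts called were, with 1 array left out and as given in the report, 1003 to 1577 and 1591 (CD64 6 h), 671 to 1162 and 1224 (CD64 2 h), 986 to 1474 and 1539 (CD32 6 h) and 639 to 1143 and 1192 (CD32 2 h) against control. Between receptors they were 704 to 1412 and 1357 at 6 h and 652 to 1336 and 1256 at 2 h, between times 469 to 1117 and 1065 (CD64) and 61 to 371 and 344 (CD32), and for the interaction 493 to 948 and 884. With no variance trend 725 were called in CD64 2 h against control, 830 between receptors at 2 h, 579 between times in CD64, 54 between times in CD32 and 417 for the interaction. Among the named list genes, calls were lost without 1 array of a group compared for GNAS (CD32 6 h replicate 1), PRKACB, GNG7, PLCB2, PDE4B, ADORA2B, ITPR3 and HRH1 (CD64 2 h and CD32 6 h). The cause of these changes was not tested.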
